A study of Mus musculus with 10 samples.

Results

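Fgf4, Fgfr1, Fgfr2, Spry2, Spry4, Dusp6, Etv4, Etv5 and Egr1 are 9 genes of fibroblast growth factor (FGF) and ERK signalling, and they were followed here through 3 RNA-seq replicates of mouse embryonic stem cells. They were chosen by name, as the rows of the gene tables that carry the Ensembl identifiers of these symbols, and all 9 were found among 55487 genes. The study maps R-loops by MapR and BisMapR and holds 10 samples in 6 groups, and only the 3 RNA-seq samples were used here. The RNA-seq group is the line E14, cultured with 15% fetal bovine serum, LIF, 3 µM of a GSK inhibitor and 1 µM of an inhibitor of MEK1/2. Every sample of the series carries the same inhibitors, so the levels below were measured under MEK inhibition and the effect of the inhibitor itself was not measured. The labels do not say whether the replicates came from separate cultures, so the spread between them may be technical.

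An FGF binds an FGF receptor together with heparan sulfate, and the receptor then passes the signal through adaptor proteins, RAS, RAF and MEK to the kinase ERK. ERK activates transcription, and among the genes it switches on are inhibitors of the pathway itself, which form negative feedback. In mouse embryonic stem cells FGF4 is known as the main ligand that drives ERK and makes the cells ready to differentiate, and inhibitors of MEK are added to culture to hold them in the naive state.

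The 9 genes fell on either side of 1 TPM, a transcript abundance that is corrected for length and scaled to 1 common total per library. The ligand gene Fgf4, the receptor gene Fgfr1, the inhibitor gene Spry2 and the ETS factor genes Etv4 and Etv5 had a mean TPM between 6.51 and 43.3. The inhibitor genes Spry4 and Dusp6, the receptor gene Fgfr2 and the immediate early gene Egr1 had a mean TPM between 0.07 and 0.777. A mean TPM of at least 1 was thus reached by 5 of the 9 genes. Of all genes listed, 19.8% reached it, and of protein-coding genes of the nuclear chromosomes 44.2%. The median over the 9 genes of their mean TPM was 6.51, beside 0.463 over all protein-coding genes and 5.72 over the 9667 of them that reached 1 TPM.

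**Figure D1:**
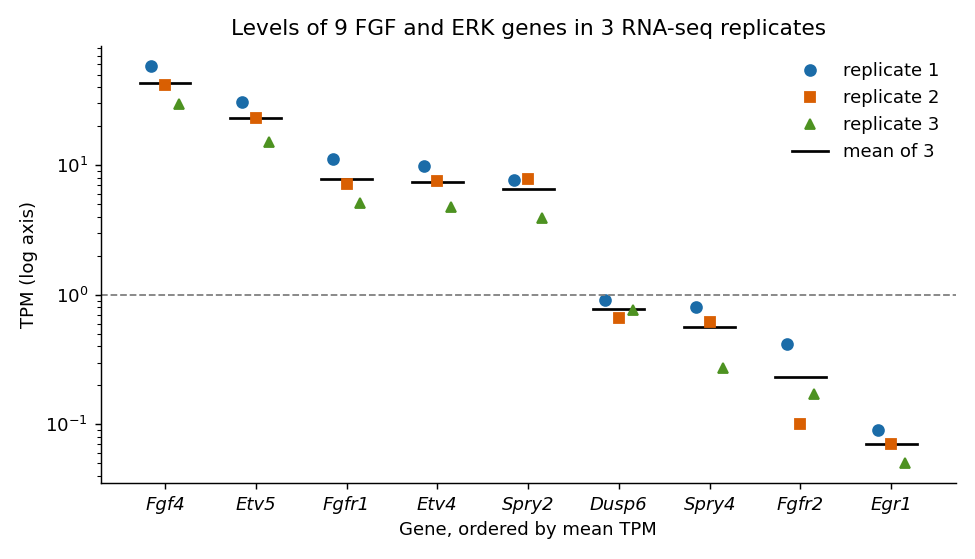
TPM (log axis) of each gene in RNA-seq replicates 1, 2 and 3 (points) with their mean (black line), ordered by mean; the dashed line marks 1 TPM. Fgf4, Etv5, Fgfr1, Etv4 and Spry2 lie above 1 TPM in every replicate, and Dusp6, Spry4, Fgfr2 and Egr1 lie below it in every replicate.

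The sequences shown first lie before annotated starts of 3 of the genes. For Fgf4 the tables list a length of 3030 nt in every replicate, which is the length of 1 of its 2 annotated transcripts (ENSMUST00000060336), so the estimate placed the counts of Fgf4 on the transcript that starts at position 144861386 of chromosome 7 (GRCm38). Spry2 has 1 annotated transcript, of 2087 nt, which starts at position 105896819 of chromosome 14. The 2 protein-coding transcripts of Dusp6, of 2359 and 2796 nt, share a start at position 99263231 of chromosome 10. The tables list a length of 2796 nt for Dusp6 in replicate 2 but 2251 and 1806 nt in replicates 1 and 3, shorter than both, so in those replicates part of the estimate lay on the 2 shorter transcripts of 758 and 876 nt, which start further downstream. The RefSeq starts (GRCm38.p6) of these 3 genes are the same positions. The 250 bases before each start are shown 5′ to 3′ on the strand of the gene, so that the gene highest of the 9 (Fgf4) can be set beside an inhibitor gene above 1 TPM (Spry2) and one below it (Dusp6). Capitals mark the GC box letters GGGCGG, read on either strand.
Fgf4 promoter, chr7:144861136-144861385, plus strand: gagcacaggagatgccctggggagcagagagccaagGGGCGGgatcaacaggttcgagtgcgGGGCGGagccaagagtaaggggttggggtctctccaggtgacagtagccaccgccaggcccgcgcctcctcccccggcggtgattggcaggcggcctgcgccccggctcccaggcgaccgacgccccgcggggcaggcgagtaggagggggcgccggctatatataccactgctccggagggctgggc
Spry2 promoter, chr14:105896820-105897069, minus strand: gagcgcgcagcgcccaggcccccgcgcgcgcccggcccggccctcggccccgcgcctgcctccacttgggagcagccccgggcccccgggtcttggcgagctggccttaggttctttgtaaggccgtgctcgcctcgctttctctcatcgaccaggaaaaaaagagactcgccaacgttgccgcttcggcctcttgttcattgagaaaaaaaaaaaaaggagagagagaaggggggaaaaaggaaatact
Dusp6 promoter, chr10:99262981-99263230, plus strand: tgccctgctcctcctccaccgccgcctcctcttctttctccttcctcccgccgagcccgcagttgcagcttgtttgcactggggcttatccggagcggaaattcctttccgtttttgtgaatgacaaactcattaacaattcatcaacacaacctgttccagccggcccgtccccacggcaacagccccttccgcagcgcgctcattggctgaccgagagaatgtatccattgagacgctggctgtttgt

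Among the 3 windows shown, GGGCGG occurred in that of Fgf4, at 2 places, whose first letters lie 214 and 188 bases before the start. It was not particular to Fgf4 among the 9 genes, since 1 of the 2 RefSeq windows of Etv5, not shown, held it at 3 places, and the window of Fgfr2 held none. Over 32841 RefSeq promoter windows of the same length, 32.7% held GGGCGG on either strand. The letters CCGGAA, a longer form of the ETS core, were absent from all 3 windows on both strands, and 12.0% of RefSeq windows held them. The shorter core letters GGAA were not counted, and they do occur in the windows of Spry2 and Dusp6. The exact TATA box letters TATAAA were also absent from all 3 on both strands, against 12.4% of RefSeq windows. Near its end the Fgf4 window does hold TATATATA, a related run of letters that this search did not count. A match or its absence in these windows describes the letters only.

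Fgf4 is also known for an enhancer near the end of the gene that the stem cell factors SOX2 and OCT4 (the product of Pou5f1) bind side by side. A search for CTTTGTT followed after 3 bases by ATGCTAA found 1 match in exon 3 of Fgf4, in its 3′ untranslated region. Capitals mark the letters searched, SOX letters first.
Fgf4 paired site, chr7:144864388-144864416, plus strand: aaaactCTTTGTTtggATGCTAAtgggat

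Of 21045 genes with an annotated 3′ untranslated region in a protein-coding transcript, 1 held this arrangement on either strand, and that gene was Fgf4. The letters and spacing were exact strings chosen for the Fgf4 enhancer, not a general SOX or OCT pattern. The count therefore follows from that choice and does not measure how rare such sites are. Pou5f1 had 149 ± 21.7 TPM (SD, n = 3) and Sox2 had 32.9 ± 7.08 TPM (SD, n = 3) in the same libraries. Binding at the site was not measured in these tables.

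The libraries held 5787357 to 11420425 estimated counts. All 7 naive stem cell markers had a mean TPM of at least 1, with a summed TPM of 452 to 622 over the replicates. The 7 primitive endoderm markers summed to 0.51 to 1.16 TPM and Foxa2 had no counts. The 7 fibroblast markers summed to 1.79 to 4.57 TPM, mostly from Thy1, while Col3a1, Lum and Dcn had no counts in any replicate. The 6 primed epiblast markers summed to 4.11 to 6.85 TPM, and 2 of the 6 had a mean TPM of at least 1. These were Dnmt3b at 3.3 ± 0.51 and Otx2 at 1.82 ± 0.71 TPM (SD, n = 3). Scaled by edgeR's TMM normalization, 232 of 12577 genes tested (1.84%) varied between replicates beyond genes of similar abundance.

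Fgf4 (ENSMUSG00000050917, chromosome 7, 144847367 to 144865243 in GENCODE vM21), the ligand, had the highest level of the 9. Its TPM was 58.5, 41.7 and 29.7 in replicates 1, 2 and 3, from 4585, 2282 and 1635 counts. Replicate 1 was highest and replicate 3 lowest, and the mean was 43.3 ± 14.4 TPM (SD, n = 3). Of protein-coding genes, 97.3% had a lower mean TPM. As counts scaled to the library total (CPM, not corrected for length), Fgf4 stood at 401, 353 and 283, a narrower spread of 17.3% of the mean against 33.3% in TPM.

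On the deposited TPM scale Fgf4 was the only 1 of 22 listed FGF genes whose mean reached 1, and it held 92.3% of their summed mean TPM. The next were Fgf3 at 0.783 ± 0.40, Fgf17 at 0.663 ± 0.19 and Fgf10 at 0.533 ± 0.24 TPM (SD, n = 3). Fgf15 had 0.487 ± 0.119 TPM (SD, n = 3). With genes of effective length under 100 nt left out of the TPM total, 6 of the 22 reached 1, with Fgf3 next to Fgf4 at 2.10 TPM, and with protein-coding genes alone in the total 7 did. Fgf8, which acts in the early embryo after implantation, had 2, 1 and 0 counts. Fgf5, a marker of the primed epiblast, was among 7 FGF genes with no counts in any replicate, and 11 of the 22 were at or under 3 counts in every replicate. At this depth 3 counts correspond to 0.263, 0.464 and 0.518 CPM in replicates 1, 2 and 3, so a gene with no counts may still be present below those levels.

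Fgfr1 (ENSMUSG00000031565, chromosome 8, 25513654 to 25575718), a receptor tyrosine kinase for FGFs, had 11.1, 7.19 and 5.14 TPM in replicates 1, 2 and 3, from 830, 455 and 287 counts. Its mean was 7.81 ± 3.03 TPM (SD, n = 3), above that of 82.6% of protein-coding genes. Fgfr2 (ENSMUSG00000030849, chromosome 7, 130162451 to 133123350), a receptor that marks the primitive endoderm lineage of the blastocyst, had 0.42, 0.1 and 0.17 TPM from 16.04, 5 and 4.08 counts. The ranges of the 2 receptor genes did not overlap. Fgfr1 exceeded Fgfr2 by 26.4, 71.9 and 30.2 times in TPM, a mean log2 ratio of 5.27 ± 0.78 (SD, n = 3). Without length scaling the same comparison gave 51.7, 91.0 and 70.3 times in CPM.

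The order of the Fgfr2 values depended on the unit. In CPM, replicate 2 at 0.773 lay above replicate 3 at 0.705, while in TPM replicate 2 was lowest. The tables list a length for Fgfr2 of 1531, 2786 and 1386 nt in replicates 1, 2 and 3, an average over 27 transcripts that rested on these few counts. The exact 95% binomial interval of the CPM (Clopper-Pearson) ran from 0.801 to 2.28 in replicate 1, from 0.251 to 1.80 in replicate 2 and from 0.188 to 1.77 in replicate 3. The intervals overlap, which is not a test of a difference between the replicates. In replicates 2 and 3 the lower bounds lay below the CPM of 3 counts, so Fgfr2 was near the limit of detection there. Fgfr2 did not pass the filter on low counts of the test described below. Such intervals hold no error other than that of counting, and PCR duplicates make them too narrow. The annotated span of Fgfr2 reaches across 69 other genes, but its far end is set by the transcript ENSMUST00000124096, which starts at position 133123350. All other annotated transcripts of Fgfr2 start at or below position 130266263. The overlap was taken over whole gene spans, and exons were not compared. How the authors' counting treated strand is not given in the sources used here.

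Fgfr1 was the only 1 of 7 receptor and coreceptor genes with a mean of at least 1 on the deposited TPM scale. Fgfrl1, a receptor without a kinase domain, followed at 0.93 ± 0.173 TPM (SD, n = 3), and Fgfr4 had 0.39, 0.52 and 0.2 TPM. With short genes left out of the total Fgfrl1 had 2.52 and Fgfr4 1.02 TPM, so that 3 of the 7 reached 1, and with protein-coding genes alone 5 did. Fgfr3 had 2, 4 and 1 counts, and Klb and Kl, coreceptors for the endocrine FGFs, had 14, 14 and 10 counts and 0, 1 and 1 counts. Gm16159, annotated on the strand opposite to Fgfr1, had 0, 2 and 0 counts. Of 15 genes for heparan sulfate carriers and enzymes, 11 had a mean TPM of at least 1, the highest being Ext2 at 9.43 ± 1.92, Sdc4 at 8.22 ± 2.56, Hs6st1 at 8.04 ± 2.97 and Hs2st1 at 5.24 ± 2.01 TPM (SD, n = 3).

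The genes between receptor and ERK were all detected. Of 22 adaptor, RAS, RAF, MEK, ERK and ERK-activated kinase genes, 22 had a mean TPM of at least 1, with a median of 8.97. Mapk3, which encodes the kinase ERK1, had 22.7 ± 5.49 TPM (SD, n = 3). Gab1, which encodes a docking protein downstream of the receptors, had 15.9 ± 6.02 TPM (SD, n = 3). The genes for the targets of the inhibitor, MEK1 and MEK2, were Map2k1 at 15.6 ± 2.82 and Map2k2 at 8.08 ± 1.88 TPM (SD, n = 3). RNA levels do not report the activity of these kinases.

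**Figure D2:**
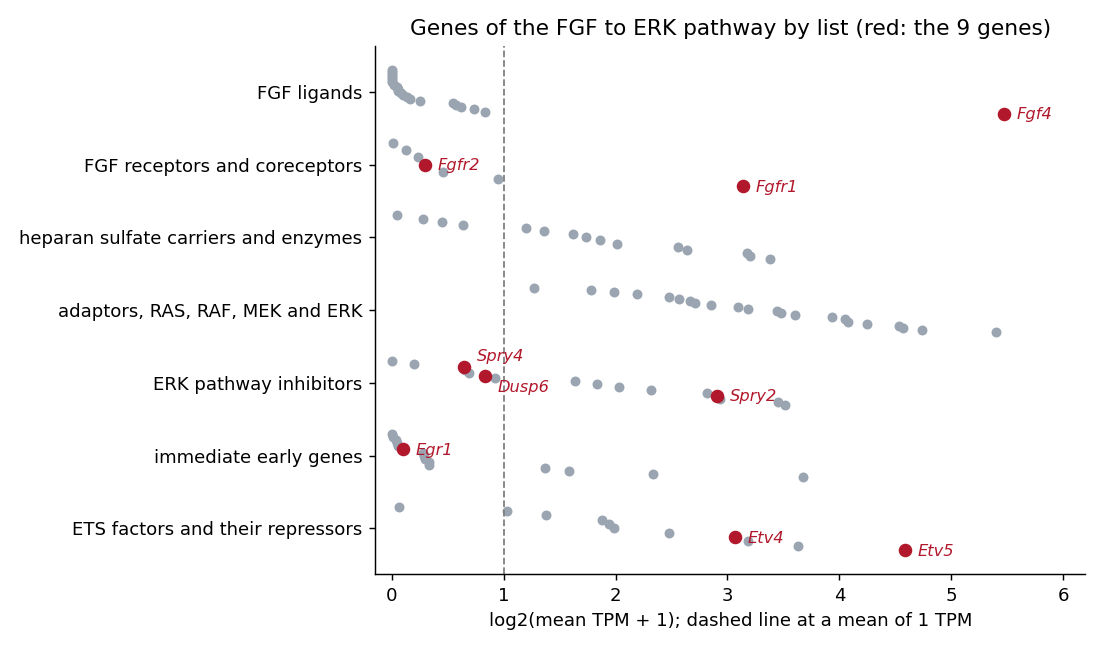
Mean over 3 replicates of the deposited TPM, as log2(mean TPM + 1), for each matched gene of 7 pathway lists, with the 9 genes in red and the dashed line at a mean of 1 TPM; vertical position within a list only separates the points. On this scale Fgf4 is the gene of the ligand list and Fgfr1 that of the receptor list above the line. With short genes left out of the total, 6 genes of the ligand list and 3 of the receptor list reach 1. All 22 genes of the RAS to ERK list lie above the line.

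Spry2 (ENSMUSG00000022114, chromosome 14, 105891947 to 105896819), which encodes a Sprouty protein that inhibits signalling from receptor tyrosine kinases to RAS, had 7.72, 7.87 and 3.94 TPM in replicates 1, 2 and 3, from 408, 290 and 146 counts. In TPM, replicates 1 and 2 lay close together and replicate 3 lowest, with a mean of 6.51 ± 2.23 TPM (SD, n = 3). The CPM of Spry2 was 35.7, 44.8 and 25.2 in replicates 1, 2 and 3, so on that scale replicate 2 stood above replicate 1. Spry4 (ENSMUSG00000024427), which encodes another Sprouty inhibitor, had 0.81, 0.62 and 0.27 TPM, from 101, 54 and 24 counts. The values of the 2 Sprouty genes did not overlap. Spry2 exceeded Spry4 by 9.53, 12.7 and 14.6 times in TPM, and the log2 ratio of Spry4 to Spry2 was -3.60 ± 0.31 (SD, n = 3). The transcripts differ in length, 4755 nt for Spry4 and 2087 nt for Spry2, and in CPM, Spry2 exceeded Spry4 by 4.04, 5.37 and 6.08 times.

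Dusp6 (ENSMUSG00000019960, chromosome 10, 99263231 to 99267489), which encodes a phosphatase that inactivates ERK in the cytoplasm, had 0.91, 0.66 and 0.76 TPM, from 52, 33 and 24 counts. Its mean of 0.777 ± 0.126 TPM (SD, n = 3) had the smallest relative spread of the 9 genes in TPM, 16.2% of the mean. In CPM, Dusp6 had 4.55, 5.10 and 4.15 in replicates 1, 2 and 3. Their exact 95% binomial intervals, 3.40 to 5.97, 3.51 to 7.17 and 2.66 to 6.17, all lay above the CPM of 3 counts. Dusp6 was thus detected in every library, at a level near the middle of protein-coding genes, of which 53.7% had a lower mean TPM.

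**Figure D3:**
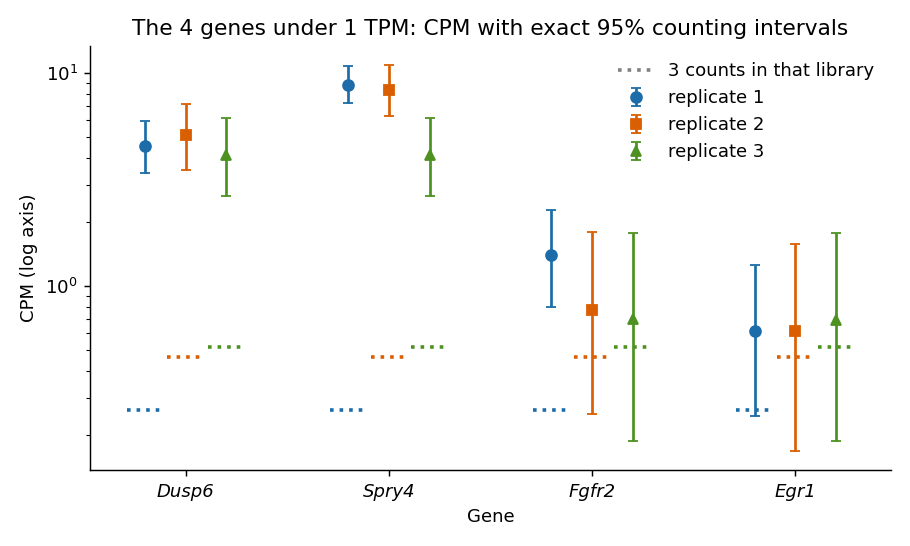
CPM (log axis) of Dusp6, Spry4, Fgfr2 and Egr1 in each replicate, with exact 95% binomial (Clopper-Pearson) intervals for counting error; dotted lines mark 3 counts in that library. The intervals of Dusp6 and Spry4 lie above the dotted lines in every replicate. Those of Fgfr2 reach below them in replicates 2 and 3, and those of Egr1 in every replicate.

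Several other inhibitor genes had higher levels than Spry4 and Dusp6. Of 16 matched inhibitor genes, 9 had a mean TPM of at least 1. Rasa1, which encodes a protein that turns RAS off, had 10.4 ± 5.20 TPM (SD, n = 3), and Dusp9, an ERK phosphatase gene, had 9.91 ± 2.01 TPM (SD, n = 3). Spred2 had 6.63 ± 2.71 and Dusp1 6.03 ± 1.67 TPM (SD, n = 3). Among the Sprouty genes Spry1 had 0.89 ± 0.395 TPM (SD, n = 3), between Spry2 and Spry4. Dusp5 had 0.57 ± 0.217 TPM (SD, n = 3), Dusp4 had 11, 12 and 2 counts, and Dusp2 had no counts in any replicate. The inhibitor genes therefore spanned levels from no counts to about that of Rasa1, and the 3 that belong to the 9 genes lay at different places in that range.

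Etv5 (ENSMUSG00000013089, chromosome 16, 22381309 to 22439719), which encodes an ETS transcription factor of the PEA3 subfamily, had 30.8, 23.2 and 15.2 TPM in replicates 1, 2 and 3, from 3155, 1669 and 1068 counts after rounding. Its mean of 23.1 ± 7.80 TPM (SD, n = 3) lay above that of 94.3% of protein-coding genes. Etv4 (ENSMUSG00000017724, chromosome 11, 101769742 to 101785371), of the same subfamily, had 9.81, 7.57 and 4.74 TPM, from 462, 255 and 173 counts. For both genes replicate 1 was highest and replicate 3 lowest. The ratio of Etv5 to Etv4 was 3.14, 3.07 and 3.21 in TPM, a log2 ratio of 1.65 ± 0.03 (SD, n = 3), the narrowest of the 3 ratios computed between related genes. In CPM, where the longer Etv5 transcript counts for more, it was 6.83, 6.55 and 6.17.

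The third gene of the subfamily, Etv1, had 1.6 ± 0.281 TPM (SD, n = 3). Of 11 listed ETS factors and repressors, 10 reached a mean TPM of 1, and Ets1 was the exception with 5, 4 and 3 counts. Cic, which encodes a repressor of Etv1, Etv4 and Etv5 that ERK signalling relieves, had 15.9, 13.1 and 5.23 TPM. Of the 88 listed genes that passed the filter, 1 varied between replicates, where 1.84% of all genes tested did. That gene was Cic (adjusted p 0.0203 in edgeR's goodness-of-fit test), with 99.0, 94.2 and 42.2 TMM-scaled CPM and replicate 3 lowest. It was no longer called when any 1 replicate was left out, with an adjusted p by edgeR of 0.0828 without replicate 1, 0.187 without replicate 2 and 0.999 without replicate 3. Erf, an ETS repressor that ERK controls, had 8.07 ± 1.35 TPM (SD, n = 3).

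Egr1 (ENSMUSG00000038418), an immediate early gene whose transcription rises within minutes of ERK activation, had the lowest mean TPM of the 9. It had 7, 4 and 4 counts, or 0.09, 0.07 and 0.05 TPM. In CPM the values were 0.613, 0.618 and 0.691, with exact 95% binomial intervals of 0.246 to 1.26, 0.169 to 1.58 and 0.188 to 1.77. The lower bounds lay below the CPM of 3 counts in each library, so Egr1 was near the limit of detection. The order in TPM was the reverse of that in CPM. The listed length was 3036 nt in replicates 1 and 2, whose order also turned, and 4021 nt in replicate 3. Genes of effective length under 100 nt held 60.3% of the TPM in replicate 1, 65.8% in replicate 2 and 63.9% in replicate 3. The part of either in the reversal was not tested.

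Egr1 was not alone in this respect among immediate early genes. Of 15 listed, 4 had a mean TPM of at least 1, and these were Ier2 at 11.8 ± 2.89, Srf at 4.06 ± 0.086, Ier3 at 2.0 ± 0.893 and Junb at 1.58 ± 0.23 TPM (SD, n = 3). Egr2 had 0, 1 and 0 counts, Egr3 had 4, 0 and 0, and Egr4 had 0, 1 and 0. Fos, which like Egr1 is induced through serum response factor and ETS partners, had 20, 4 and 3 counts, and Fosl1 had no counts in any replicate. Myc had 12, 8 and 5 counts and Jun had 21, 16 and 14. SRF itself, the product of Srf, is a transcription factor upstream of these genes.

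The 9 genes could be ordered only in part. By mean TPM the order was Fgf4, Etv5, Fgfr1, Etv4, Spry2, Dusp6, Spry4, Fgfr2 and Egr1. Differences between neighbours were taken within each replicate as log2(TPM + 1), and 6 of the 8 neighbouring pairs had the same sign in all 3 replicates. Fgf4 exceeded Etv5 by 0.88 ± 0.06 and Etv5 exceeded Fgfr1 by 1.45 ± 0.10 (SD, n = 3). The widest step was from Spry2 to Dusp6, 2.03 ± 0.48 (SD, n = 3). Fgfr1 and Etv4 differed by 0.06 ± 0.12 and Etv4 and Spry2 by 0.16 ± 0.19 (SD, n = 3). Both lay within their spread, with 2 of 3 replicates in the direction of the mean. Taken in log2 CPM, Fgfr1 exceeded Etv4 in 3 of 3 replicates, by 0.80 ± 0.06 (SD, n = 3). Whether Fgfr1 stood above Etv4 thus depended on length scaling. Etv4 and Spry2 differed in log2 CPM by 0.08 ± 0.23 (SD, n = 3), within the spread. Dusp6 exceeded Spry4 in 3 of 3 replicates, but by 0.19 ± 0.24 (SD, n = 3), again within the spread. In CPM this pair turned, with Spry4 at 8.84, 8.35 and 4.15 and Dusp6 at 4.55, 5.10 and 4.15 in replicates 1, 2 and 3, so their order depended on length scaling. Fgfr2 exceeded Egr1 by 0.19 ± 0.17 (SD, n = 3), but on 16.04, 5 and 4.08 counts against 7, 4 and 4. In log2 CPM their difference was 0.52 ± 0.61 (SD, n = 3), within its spread, so the lowest step was not resolved either. With 3 replicates an exact two-sided sign test cannot reach a p-value under 0.05, since the smallest it allows is 0.25, so none was computed.

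Variation between replicates was tested with all genes in the fit. Of the 9 genes 7 passed the filter on low counts, and Fgfr2 and Egr1 did not. No gene of the 7 varied beyond genes of similar abundance (0 at adjusted p under 0.05 and 0 at unadjusted p under 0.05 in edgeR's goodness-of-fit test), where 1.84% of all genes tested did at the adjusted and 6.96% at the unadjusted threshold. The smallest unadjusted p-values by edgeR were 0.14 for Spry4 and 0.145 for Spry2, and the largest was 0.923 for Dusp6. A gene that misses this threshold is not shown to be equal in the replicates.

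Replicate 3 had the lowest TPM for 7 of the 9 genes, the exceptions being Dusp6 and Fgfr2. Over all genes with a mean TPM of at least 1, 75.6% were lowest in replicate 3. After TMM scaling, replicate 3 was lowest for 6 of the 7 genes tested, where 40.4% of all genes tested were. Set against the mean of the gene in log2 of TMM-scaled CPM, replicate 3 deviated by amounts that ran from -0.54 for Spry4 through -0.32 for Spry2 to -0.03 for Dusp6. In these libraries deviations also move with gene length, and the median deviation of replicate 3 among genes in the length decile of Spry4 was -0.09, while in that of Spry2 it was 0.02. The part of length, or of any other property of replicate 3, in these values was not tested.

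**Figure D4:**
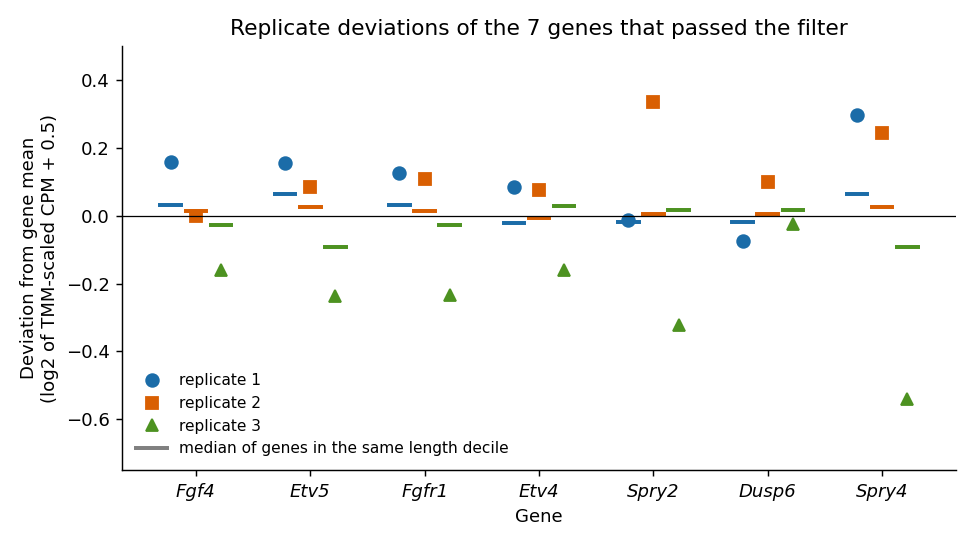
Distance of each replicate from the mean of the gene in log2(TMM-scaled CPM + 0.5) for the 7 genes tested (points), beside the median deviation of genes in the same length decile (short lines, taken over genes averaging 100 counts or more). Replicate 3 lies lowest for every gene except Dusp6, and the lines stay nearer to 0 than the replicate 3 points in 7 of 7 genes.

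The place of Spry4, Dusp6 and Fgfr2 under 1 TPM depended on what else was counted in the total. Genes of effective length under 100 nt held 60.3% to 65.8% of the TPM of these libraries. With genes of effective length under 100 nt left out of the total, Dusp6 had 2.11 ± 0.18 and Spry4 1.53 ± 0.69 TPM (SD, n = 3), and 7 of the 9 genes reached a mean of 1, as did 51.6% of protein-coding genes. With protein-coding genes alone in the total, an alternative chosen after seeing the data, Fgfr2 reached 1.31 TPM and 8 of the 9 genes reached 1, as did 56.7% of protein-coding genes. Of the 16 inhibitor genes, 14 reached 1 on either scale in place of 9, and of the 15 immediate early genes 4 and 9 did. Egr1 stayed below 1 TPM on both scales, at 0.19 and 0.411. Rescaling the total in this way multiplies every gene of a library alike and leaves the ratios between genes as they were.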

How the data were processed

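RNA was measured in 3 replicates of 1 group. Per the labels' protocols, DNase-treated total RNA went into strand-marking libraries after removal of ribosomal RNA. STAR and RSEM are named, with the build mm10, in the submitters' processing notes, and versions, annotation release and strand setting are not given in the sources used here. Per the file headers, the authors deposited expected counts (estimated, not normalized) and TPM for each gene, with length and effective length (other columns, in nucleotides).

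Genes were matched by Ensembl identifier to GENCODE vM21 (GRCm38), and 133 of 134 listed symbols matched (Spry3 did not). Levels are deposited TPM, and CPM is the estimated count scaled to the library total. The log scale is log2(TPM + 1). Variation was tested in edgeR 4.0.16 (R 4.3.3) on counts rounded to whole numbers, with TMM, filterByExpr, an intercept-only design and a goodness-of-fit test of the deviance under the trended dispersion, adjusted by Benjamini-Hochberg over 12577 genes, and the code was tested on simulated data. DESeq2 1.42.0 gave alternative size factors. Promoters came from RefSeq (GRCm38.p6), where 5 of the 9 genes matched. Other steps used Python 3.11.15, pandas 2.3.3 and scipy 1.17.1.

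The 9 genes and the lists were chosen with earlier results of these data known. All 9 genes are named, and from each list those with the highest mean TPM, relatives of the 9, genes at or near 0 counts and genes that varied between replicates. No gene was named for likeness to another, because 3 replicates of 1 group hold no pattern over conditions. Some genes of these lists are not reported here by name.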

Additional observations from a re-analysis of the deposited data

How the results depend on the processing

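Across 24 results, 118 alternatives were computed, 15 of which were chosen after seeing the data. Of the 118, 75 were labelled the same, 43 moved and 0 reversed. Most of the results are levels or counts of genes, which have no direction, so a reversal was open to the log2 ratios alone. For the order of the 9 genes the label rests on the count of neighbouring pairs (6 in TPM and 6 in CPM). It does not cover which pairs, since Spry4 ranked above Dusp6 in CPM. The count of the 9 genes at a mean of 1 TPM was 5, and it was 8 with protein-coding genes alone in the total, 7 with short genes left out and 7 with CPM. Leaving out a replicate gave 63 to 93 genes varying between replicates in place of 232, with fewer samples in each fit. None of the 9 genes varied in any alternative (0 at adjusted p under 0.05 by edgeR), with 9 tested without the filter and 7 in each of the others. The log2 ratio of Fgfr1 to Fgfr2 was 2.79 with a pseudocount of 1 and 6.11 in CPM. That of Spry4 to Spry2 was -2.23 with a pseudocount of 1 and -2.35 in CPM. That of Etv5 to Etv4 was 1.52 with a pseudocount of 1, 2.70 in CPM and 1.70 with counts divided by the listed length. A pseudocount shrinks ratios of low genes and CPM adds the lengths by construction. The median of the 9 genes in log2(TPM + 1), 2.82, became 4.13 with short genes left out of the total, 5.21 with protein-coding genes alone and 2.31 as a mean. Of 54 alternatives for single levels, 22 moved by more than the spread between replicates. Depth limits the low end, since 3 counts are 0.518 CPM in replicate 3. No paired analysis was possible because the replicate numbers occur within a lone RNA-seq group, with no second group to pair it with.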
